A study of Homo sapiens with 8 samples.

Results

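The clustered protocadherins were read with 57 probes for 52 genes, of 31741 probes and of 18255 genes that had a probe of a single symbol. They were all probes whose only gene symbol in the platform annotation begins with PCDHA, PCDHB or PCDHG. The alpha cluster had 15 probes for 14 genes, the beta cluster 22 probes for 18 genes and the gamma cluster 20 probes for 20 genes. The beta probes include those of the pseudogenes PCDHB17P and PCDHB18P. Of the protein-coding genes that RefSeq lists, 14 of 15 alpha genes, 16 of 16 beta genes and 20 of 22 gamma genes had a probe of their own, and PCDHA13, PCDHGA5 and PCDHGB5 had none. A further 7 probes, which carry the symbols of several protocadherins at once, were not members under this rule.

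The cells were SH-SY5Y, an established human neuroblastoma line that serves as a model of neurons. The control was left without maleic acid, and the other groups were exposed for 24 h to 10, 50 or 100 μM of maleic acid, which carries a pair of carboxyl groups. Each of the 4 doses gave 1 RNA sample, which was hybridized to 2 Human Whole Genome OneArray slides with the dye Cy5, so that 8 arrays were made. Both arrays of a dose measured the same RNA, and their spread therefore covers the array and not the difference between cultures.

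Protocadherins are cell-surface proteins of the cadherin superfamily that bind calcium and pair with identical isoforms on a neighbouring cell. In the alpha and gamma clusters each variable exon has its own promoter and is spliced to constant exons shared by the cluster, whereas each beta gene is a single exon. A neuron usually turns on a few variable isoforms by a choice of promoters in which CTCF and cohesin loop the promoter to distant enhancers, and the resulting combination lets its branches recognise and avoid each other. The C-type isoforms PCDHAC1, PCDHAC2, PCDHGC3, PCDHGC4 and PCDHGC5 lie at the downstream ends of their clusters and are mostly expressed without this random choice.

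All 3 clusters lie on chromosome 5. In GRCh38.p14 the alpha genes span 140786140 to 141012347, the beta genes 141051374 to 141249365 and the gamma genes 141330514 to 141512975. RefSeq promoters of this build, which reach from 250 bases before to 50 bases after each start site, were found for 45 of the 52 genes. None was found for PCDHGA12. The gamma promoters counted below also include those of PCDHGA5 and PCDHGB5, which had no probe of their own. The promoters are shown because their variable genes share a short element around the bases CGCT, and because the genes printed are the ones whose levels are described below. In the alpha cluster the letters ATGTCGCT were in 9 of 13 promoters, in none of the 14 beta and 20 gamma promoters, and in 0.282% of the promoters of all genes. The motif is in capitals in the following 52 bases of the plus strand, at chr5:140806969-140807020 for PCDHA4, chr5:140834162-140834213 for PCDHA7 and chr5:140875234-140875285 for PCDHA12.
PCDHA4: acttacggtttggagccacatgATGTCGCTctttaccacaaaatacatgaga
PCDHA7: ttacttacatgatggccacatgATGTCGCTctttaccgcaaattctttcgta
PCDHA12: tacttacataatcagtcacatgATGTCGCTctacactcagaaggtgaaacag
In the beta cluster the letters GTGGCGCT were in 13 of 14 promoters, with PCDHB1 the gene without them, and in 1.384% of all promoters. They are in capitals at chr5:141121713-141121764 for PCDHB4, chr5:141172556-141172607 for PCDHB7, chr5:141177767-141177818 for PCDHB8 and chr5:141192289-141192340 for PCDHB10.
PCDHB4: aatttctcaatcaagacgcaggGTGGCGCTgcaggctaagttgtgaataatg
PCDHB7: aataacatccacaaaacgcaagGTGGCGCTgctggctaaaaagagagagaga
PCDHB8: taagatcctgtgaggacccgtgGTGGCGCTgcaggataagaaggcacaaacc
PCDHB10: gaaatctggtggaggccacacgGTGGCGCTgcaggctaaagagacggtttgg
In the gamma cluster the letters GCCGCTGT were in 11 of 20 promoters and in 1.985% of all promoters. They are in capitals at chr5:141382641-141382692 for PCDHGA7, chr5:141387609-141387660 for PCDHGB4 and chr5:141412923-141412974 for PCDHGA10.
PCDHGA7: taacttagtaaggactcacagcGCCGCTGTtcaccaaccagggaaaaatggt
PCDHGB4: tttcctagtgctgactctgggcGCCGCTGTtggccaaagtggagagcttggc
PCDHGA10: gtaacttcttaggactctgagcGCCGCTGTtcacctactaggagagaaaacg
PCDHAC1, the alpha C-type gene with the highest fold of its cluster, had no ATGTCGCT in its promoter, nor did PCDHAC2, PCDHA9 and PCDHA11. The 250 bases before its start site, chr5:140926049-140926298 on the plus strand, hold CGCT 3 times, in capitals.
PCDHAC1: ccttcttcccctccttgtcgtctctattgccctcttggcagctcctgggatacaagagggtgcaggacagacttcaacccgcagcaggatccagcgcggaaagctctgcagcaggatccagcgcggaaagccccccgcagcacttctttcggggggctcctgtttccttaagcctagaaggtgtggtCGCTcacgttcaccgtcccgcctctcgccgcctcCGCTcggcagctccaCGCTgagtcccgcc
Both strands of all promoters were searched, the 3 motifs were picked from these promoters for being the most shared, and a match is a description of the letters only.

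No background level comes with the deposited values, so 50 normalized units were taken as one. A probe was above background at a dose when both arrays reached 50. In the control this held for 42 of the 57 probes, which stand for 40 genes. It held for 12 of 15 alpha probes (80.0%), 18 of 22 beta probes (81.8%) and 12 of 20 gamma probes (60.0%), against 85.9% of all probes on the array. The number above background was 38 at 10 μM, 40 at 50 μM and 39 at 100 μM. On all 8 arrays 37 probes reached 50, 11 of them alpha, 16 beta and 10 gamma. The gamma cluster thus had the lowest share of probes above the level. The missing ones were mostly gamma A genes, of which 4 of 11 were above it in the control. Of the gamma B probes 5 of 6 were above it, as were PCDHGC3, PCDHGC4 and PCDHGC5. Of the C-type probes of both clusters 4 of 5 were above it, all but PCDHAC2 of the alpha cluster.

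The probes that stayed under 50 on all 8 arrays were 8 in number. They were PCDHA11 and PCDHAC2 in the alpha cluster, PCDHB11 and the dimmer probes of PCDHB2 and PCDHB16 in the beta cluster, and PCDHGA1, PCDHGA6 and PCDHGA11 in the gamma cluster. PCDHAC2 had 42.7 and 42.7 untreated and 33.5 and 35.6 with 100 μM. Another 12 probes reached 50 on some arrays or doses only, namely PCDHA7, the dimmer PCDHA3 probe, PCDHB1, PCDHB7, PCDHB13, PCDHGA2, PCDHGA4, PCDHGA7, PCDHGA9, PCDHGB1, PCDHGB3 and PCDHGB4.

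The level of 50 is low. Of 293 probes for olfactory receptors, a family usually silent outside the nose, 72.4% were above 50 on both control arrays, close to the 73.7% of the protocadherin probes. The median olfactory receptor probe had an intensity of 109 over the 8 arrays. Above that median on both control arrays were 8 alpha, 15 beta and 7 gamma probes, 30 in all. The 95th percentile of the olfactory receptor probes was 3612, and PCDHGC3 was the only protocadherin above it at 0, 10 and 50 μM, joined by PCDHGA12 at 100 μM. A signal above 50 thus does not by itself show that a gene is transcribed, and the signals of different probes cannot be set against each other.

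**Figure D1:**
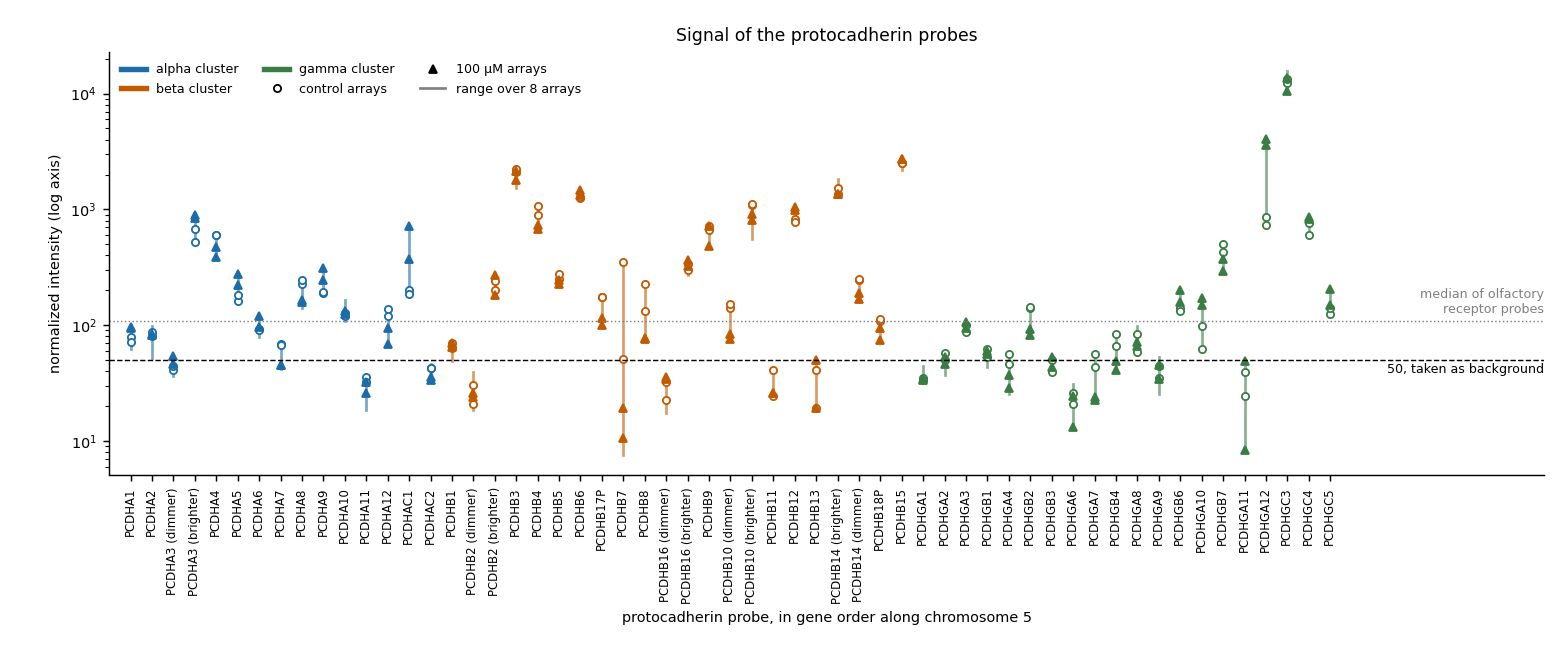
Normalized intensity (log axis) of each of the 57 protocadherin probes in gene order along chromosome 5, with the control arrays as open circles, the 100 μM arrays as triangles and the range over 8 arrays as a line. The dashed line is the level of 50, the dotted line the olfactory receptor median of 109, and heights may be compared along one probe only.

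The deposited intensities had array medians of 336 to 524, and quantile normalization gave all arrays one distribution before differences were taken. A difference is the mean log2 intensity of a dose minus that of the control, its standard error (SE) is that of a limma fit over the 8 arrays, and a probe with a Benjamini-Hochberg adjusted p under 0.05 over all 31741 probes is called beyond array noise. Such a call compares RNA samples and not conditions, for which there was no replicate. The 3 doses were compared with the same 2 control arrays, so their differences are not independent of each other. In the control 9 of 9 measured genes that mark noradrenergic neuroblastoma were above 50, with ISL1 at 68550 and 73040, but so were 6 of 6 mesenchymal, 4 of 4 epithelial, 2 of 3 glial and 1 of 3 blood markers, and the level of 50 therefore does not tell these lists apart. Of the 11 noradrenergic probes 1 was lower beyond array noise at 100 μM, a probe of GATA3 (log2 difference −0.47, limma adjusted p = 0.043). The other cell types had 9 mesenchymal, 4 blood, 4 epithelial and 7 glial probes. Of these 4 were higher, for COL1A1 (0.73), CD14 (0.63), KRT14 (0.85) and MBP (0.81), where 8.94% of all probes were. Another 3 were lower, for DCN (−0.45), COL3A1 (−0.52) and COL1A2 (−0.46), where 10.4% of all probes were. Other probes of the same genes were not called, with 0.06 and −0.17 for MBP, 0.33 for COL1A2, 0.14 for DCN and −0.37 for GATA3. Their part in the protocadherin results was not tested.

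As a whole the clusters lay near the rest of the array. At 100 μM the median log2 difference was 0.07 over the alpha probes, −0.15 over the beta probes and −0.02 over the gamma probes, against −0.03 over all probes. The middle 50% of the alpha probes ran from −0.40 to 0.43, that of the beta probes from −0.45 to 0.08 and that of the gamma probes from −0.51 to 0.17, while it ran from −0.28 to 0.23 for the whole array. The protocadherin probes therefore spread more widely around a median close to 0. At 10 μM the medians were −0.12, −0.18 and −0.04 for alpha, beta and gamma, and at 50 μM they were −0.15, −0.15 and −0.04. The beta median was below 0 at every dose, and it stayed so at 100 μM under every normalization tried. The gamma median changed sign with the normalization, from −0.02 to 0.03 with cyclic loess, 0.39 without scaling and 0.71 with median scaling, while the alpha median was above 0 in all of them and reached 0.55 with median scaling.

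**Figure D2:**
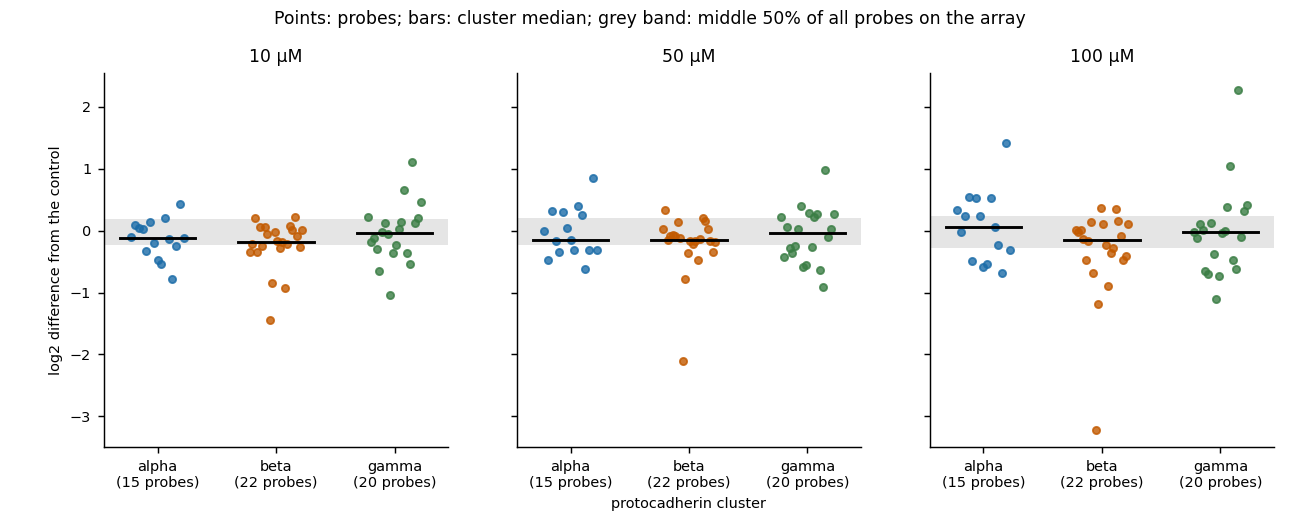
Log2 difference from the control (vertical axis) of each probe (points) of the alpha, beta and gamma clusters at 10, 50 and 100 μM, with the cluster median as a black bar and the middle 50% of all probes on the array as a grey band. At 100 μM the cluster medians of 0.07, −0.15 and −0.02 lie within the band from −0.28 to 0.23, and single probes reach 2.28 and −3.22.

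Beyond array noise, 4 members were higher at 100 μM, 11 were lower and 42 were not called. That is 7.02% higher, where 8.94% of all probes were, and 19.3% lower, where 10.4% of all probes were. By cluster, 3 alpha probes were higher and 3 lower, no beta probe was higher and 5 were lower, and 1 gamma probe was higher and 3 were lower. The calls depended on the scaling. With median scaling the split was 12 higher and 3 lower, where 16.1% and 15.1% of all probes were called, and without scaling it was 3 and 12, where 5.20% and 35.8% were. Calls were also lost without single arrays. Leaving out an array of the control or of 100 μM left 1 array in that group. Fewer probes were then called over the whole array as well as among the members. The calls of PCDHGA12 and PCDHGA7 were kept whichever array was left out, and those of the other 13 probes were each lost without at least 1 array.

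**Figure D3:**
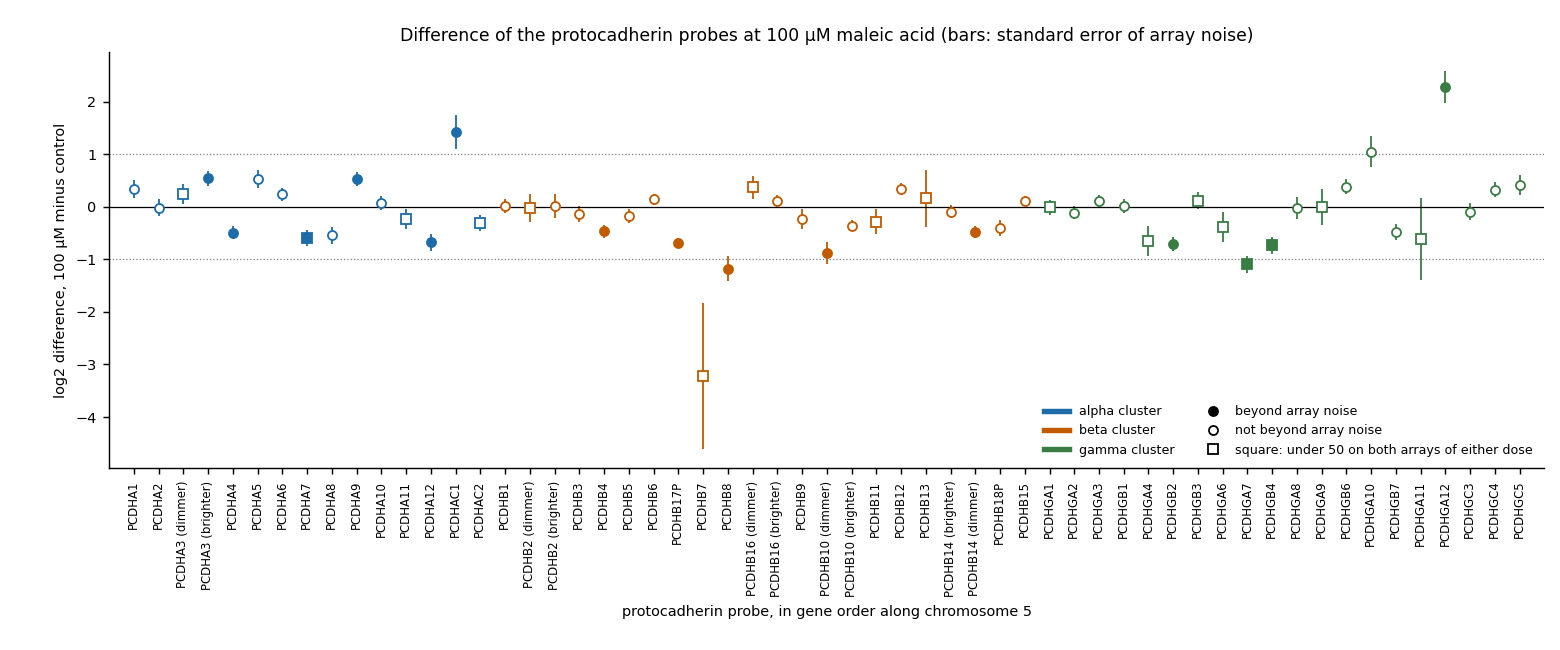
Log2 difference of 100 μM minus the control (vertical axis) for the 57 probes in gene order along chromosome 5, with the SE of array noise as bars, filled symbols for probes beyond array noise and squares for probes under 50 on both arrays of either dose, whose difference is not a fold. The 4 filled symbols above 0 and 11 below it are spread over all 3 clusters.

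At the lower doses few members were called. At 10 μM no probe was higher and 2 were lower, the brighter probe of PCDHB10 and PCDHGA7, where 1.72% of all probes were higher and 1.57% lower, and 0 were called there without either 10 μM array. At 50 μM 0 members were called in either direction, where 1.13% of all probes were higher and 1.17% lower. A difference of over 2-fold at 100 μM was found for 3 higher probes, PCDHGA12, PCDHAC1 and PCDHGA10, and for 3 lower ones, PCDHB8, PCDHB7 and PCDHGA7, where 2.88% of all probes were over 2-fold higher and 1.05% lower. Of those 3 lower probes, PCDHB8 alone was above 50 on all arrays of both doses. The means of the 4 doses increased in order for 7 members (12.3%) and decreased in order for 8 (14.04%), where 9.0% and 9.27% of all probes did. In a limma fit of the 4 averaged samples on the rank of the dose, 0 members and 0 of all probes passed, with a lowest adjusted p of 0.197, and 12 members had an unadjusted p under 0.05, as had 5515 of all probes.

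PCDHGA12, the last variable gene of the gamma A series, had the highest fold of all members. Its normalized intensity was 733 and 855 untreated, 2020 and 1461 with 10 μM, 1142 and 2162 with 50 μM and 3619 and 4069 with 100 μM. All 6 treated arrays lay above both control arrays, and the 100 μM arrays lay above all others, while 10 and 50 μM overlapped. At 100 μM the log2 difference was 2.28 (SE 0.31, limma adjusted p = 0.0072), a 4.85-fold higher level. At 10 μM it was 1.12 (adjusted p = 0.092) and at 50 μM 0.99 (adjusted p = 0.10). Under every normalization, filter and left-out array the 100 μM call was kept, with differences from 1.76 without scaling to 2.38 with cyclic loess. The probes that carry PCDHGA12 among 9, 3 and 7 symbols had smaller differences at 100 μM, 0.763, 0.195 and 0.012, and were not called. Since the RNA comes from whole cultures, more cells that express a gene and more RNA per cell cannot be told apart here or below.

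PCDHGA10, another variable gene of the gamma A series, had 98.2 and 61.7 untreated, 142 and 107 with 10 μM, 75.2 and 117 with 50 μM and 171 and 150 with 100 μM. The 100 μM arrays lay above both control arrays, and those at 50 μM overlapped the control. The log2 difference of 1.04 (SE 0.30) had a limma adjusted p of 0.053 and missed the threshold. It passed with cyclic loess (1.22), median scaling (1.69), no scaling (1.37), an offset (0.70) and a filter on dim probes (1.04). With the array number as a block it missed the threshold too. Over the left-out arrays the difference ran from 0.69 to 1.32. Both control arrays lay under the olfactory receptor median of 109. Of the genes around it, some lay on the other side of 0 or under background. PCDHGB7, between PCDHGA10 and PCDHGA11, had 503 and 427 untreated and 296 and 374 with 100 μM, a log2 difference of −0.48 (limma adjusted p = 0.081). PCDHGA11, the gamma A gene before PCDHGA12, stayed under 50 on every array. PCDHGB6, upstream of PCDHGA10, had 142 and 132 untreated and 202 and 158 with 100 μM, with means in the order of the dose and a difference of 0.38 that missed the threshold (limma adjusted p = 0.10). PCDHGA3 and PCDHGA8, the other gamma A probes above background on all arrays, had 0.10 and −0.03.

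Among the lower gamma probes, PCDHGB2 had 142 and 142 untreated, 134 and 145 with 10 μM, 135 and 107 with 50 μM and 82.5 and 91.8 with 100 μM. Its 100 μM arrays lay below every other array, with a log2 difference of −0.71 (SE 0.14, limma adjusted p = 0.018), a call that was lost without either control array, without the first 100 μM array and under median scaling or no scaling. PCDHGB4 fell in the order of the dose, from 83.2 and 66.2 untreated to 48.9 and 40.6 with 100 μM. Since the latter are under 50, it was at least 1.48-fold lower against the level of 50 (limma adjusted p = 0.024). Its control arrays, however, also lay under the olfactory receptor median of 109. The call was lost without the first control array, without the second 100 μM array and under median scaling or no scaling. PCDHGA7 had 43.9 and 56.2 untreated, 22.1 and 26.3 with 10 μM, 35.6 and 30.7 with 50 μM and 22.7 and 23.7 with 100 μM. The 6 treated arrays lay below both control arrays, but these arrays and the first control array were under 50, so no fold is given, and the limma adjusted p was 0.030 at 10 μM and 0.0088 at 100 μM. The last call was lost under median scaling and no scaling.

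**Figure D4:**
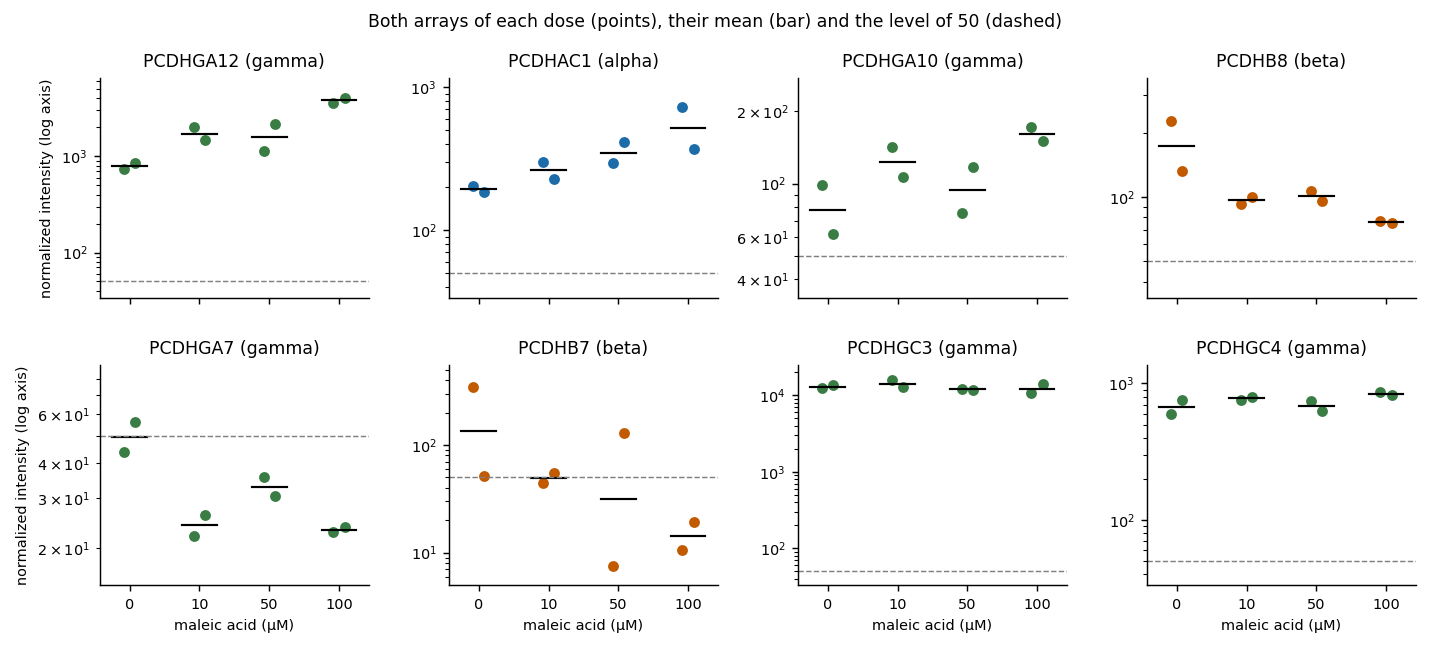
Normalized intensity (log axis) of 8 named genes by dose of maleic acid in μM, with both arrays as points, their mean on the log2 scale as a bar and the level of 50 as a dashed line. PCDHGA12 and PCDHAC1 are highest at 100 μM, PCDHB8 lowest there, both PCDHB7 arrays of a dose lie far apart except at 10 μM and 100 μM, and PCDHGC3 stays between 10600 and 15630.

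PCDHAC1, the first C-type gene of the alpha cluster, had the highest fold of that cluster and followed the order of the dose. Its intensity was 203 and 184 untreated, 298 and 229 with 10 μM, 296 and 412 with 50 μM and 724 and 372 with 100 μM. All treated arrays lay above both control arrays, but the 100 μM arrays differed from each other and the lower of them lay below one 50 μM array. The log2 difference at 100 μM was 1.42 (SE 0.33, limma adjusted p = 0.029), a 2.68-fold higher level. Without the first 100 μM array it was 0.95 and the call was lost, as it was without either control array, where the difference was 1.45 and 1.33.

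The other higher alpha probes were modest. PCDHA9, a variable gene, had 190 and 194 untreated, 229 and 215 with 10 μM, 253 and 253 with 50 μM and 313 and 246 with 100 μM. It increased in the order of the dose with no overlap of control and treated arrays, and reached a log2 difference of 0.53 (SE 0.13, limma adjusted p = 0.036). The brighter probe of PCDHA3 had 671 and 525 untreated and 891 and 840 with 100 μM, with a log2 difference of 0.54 (SE 0.14, adjusted p = 0.040), and at 10 and 50 μM it had 525 to 643. The means of PCDHA5 were also in the order of the dose, with 163 and 182 untreated and 277 and 223 with 100 μM, but its log2 difference of 0.53 had a limma adjusted p of 0.086. The other alpha probes above background that were not called lay between −0.54 for PCDHA8 (adjusted p = 0.055), with 227 and 245 against 159 and 165, and 0.34 for PCDHA1, with 79.3 and 71.6 against 96.9 and 93.6. The calls of PCDHA9 and PCDHA3 were each lost without most single arrays, without scaling and, for PCDHA3, with median scaling.

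The lower alpha probes were the variable genes PCDHA4, PCDHA7 and PCDHA12. Their promoters hold ATGTCGCT, as do those of 9 alpha probes in all, of which 3 were lower and 0 higher. Of 4 alpha probes with a promoter without these letters, 0 were lower and 2 higher. No promoter was found for PCDHA3, whose brighter probe was higher. Of 17 beta probes with the beta motif 4 were lower, and of 1 without it 0. Of 10 gamma probes with the gamma motif 2 were lower, and of 8 without it 1. No beta or gamma probe with a promoter was higher. Over all probes 8.94% were higher and 10.4% lower. A link was not tested. PCDHA4 had 602 and 601 untreated, 451 and 504 with 10 μM, 481 and 466 with 50 μM and 386 and 471 with 100 μM. All treated arrays lay below both control arrays, and the log2 difference at 100 μM was −0.50 (SE 0.12, limma adjusted p = 0.038). PCDHA12 decreased from 139 and 119 to 68.8 and 93.6, with 98.4 to 108 at the doses between, and its log2 difference was −0.68 (SE 0.16, adjusted p = 0.034). PCDHA7 had 68.9 and 67.3 untreated and 45.2 and 45.1 with 100 μM, at least 1.36-fold lower against the level of 50 (adjusted p = 0.043). With median scaling, however, its log2 difference was 0.01, and its control arrays lay under the olfactory receptor median of 109. The calls of PCDHA4 and PCDHA12 were each lost without any single array other than the second at 100 μM, and that of PCDHA12 also under median scaling or no scaling. The call of PCDHA7 was lost without any single array other than those at 10 μM, and also under median scaling, no scaling or the offset.

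In the beta cluster all 5 calls at 100 μM were lower. PCDHB8 had 226 and 132 untreated, 92.2 and 100 with 10 μM, 107 and 95.7 with 50 μM and 77.2 and 75.2 with 100 μM. The 6 treated arrays lay below both control arrays, and the log2 difference at 100 μM was −1.18 (SE 0.23, limma adjusted p = 0.020), a 2.27-fold lower level. Without the first control array, the brighter one, it was −0.76, and the call was lost without either 100 μM array and with median scaling. PCDHB17P, a pseudogene that lies beside PCDHB7, had 174 and 175 untreated, 169 and 169 with 10 μM, 162 and 160 with 50 μM and 116 and 101 with 100 μM, a decrease in the order of the dose that was steepest at the last step, with a log2 difference of −0.69 (SE 0.10, adjusted p = 0.0090). That call was lost without either control array and with median scaling.

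PCDHB7, which lies between PCDHB17P and PCDHB8, had intensities of 349 and 51.4 untreated, 44.2 and 54.6 with 10 μM, 7.51 and 130 with 50 μM and 10.7 and 19.2 with 100 μM. The arrays lay over 2-fold apart in the control and at 50 μM. At 100 μM it was at least 2.68-fold lower against the level of 50, but the limma adjusted p was 0.15, and the bound rests on the first control array, since the second had 51.4. The probes of the 3 neighbours thus all had their lowest mean at 100 μM, and 2 of them were called. On either side of them, PCDHB6 had a log2 difference of 0.14 and the brighter PCDHB16 probe of 0.11, neither called. The share of all probes with their lowest mean at 100 μM was not counted. PCDHB4 had 890 and 1077 untreated and 739 and 676 with 100 μM, a log2 difference of −0.47 (SE 0.13, adjusted p = 0.046), with 891 to 1047 at the doses between. The call of PCDHB4 was lost whichever single array was left out and with cyclic loess.

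The beta genes above background that were not called covered a range of signals. PCDHB3 had 2112 and 2222 untreated and 2159 and 1808 with 100 μM, PCDHB15 2524 and 2518 against 2727 and 2721, and PCDHB6 1252 and 1285 against 1338 and 1459. PCDHB12 had the largest log2 difference above 0 among them, 0.35 (SE 0.10, limma adjusted p = 0.057), with 829 and 778 untreated and 1058 and 984 with 100 μM, and its means were in the order of the dose. PCDHB5 had a difference of −0.17, PCDHB9 of −0.24 and the brighter probes of PCDHB2 and PCDHB16 of 0.01 and 0.11, none of them called. PCDHB1, which lies at the upstream end of the cluster and whose promoter lacks the shared motif, had 63.4 and 69.5 against 70.1 and 64.1, and its arrays overlapped. PCDHB18P, the other pseudogene, had means that followed the dose downward, with 109 and 112 untreated and 74.2 and 93.6 with 100 μM, and a log2 difference of −0.40 that missed the threshold (adjusted p = 0.13).

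For 5 genes, PCDHA3, PCDHB2, PCDHB10, PCDHB14 and PCDHB16, 2 probes each were members, and these did not always move together. The brighter PCDHB10 probe had 1084 and 1114 untreated, 605 and 551 with 10 μM, 782 and 794 with 50 μM and 804 and 914 with 100 μM. It was lowest at 10 μM, with a log2 difference of −0.93 (limma adjusted p = 0.012), and at 100 μM its difference was −0.36 (adjusted p = 0.061). The dimmer PCDHB10 probe had 142 and 153 untreated, 106 and 159 with 10 μM, 147 and 118 with 50 μM and 84.2 and 75.2 with 100 μM, so that its lowest dose was 100 μM, with −0.89 (SE 0.21, adjusted p = 0.031). Both probes were lower at 100 μM, but they differed in the dose at which they were lowest. The dimmer PCDHB14 probe went from 246 and 250 to 188 and 168 with −0.48 (SE 0.11, adjusted p = 0.029), whereas the brighter had 1349 and 1532 against 1351 and 1348, a difference of −0.09. The calls of the dimmer PCDHB10 and PCDHB14 probes were lost without either control array, without either 100 μM array and with median scaling, and that of PCDHB14 also without either 50 μM array. The dimmer PCDHA3 probe had 40.6 and 44.5 against 46.1 and 54.6, near the level of 50. The genes of a cluster are similar in sequence, and how far a probe also binds the RNA of a relative was not tested.

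The C-type genes of the gamma cluster were not called. PCDHGC3 had 12450 and 13380 untreated, 15630 and 12630 with 10 μM, 12140 and 11810 with 50 μM and 10600 and 13770 with 100 μM. The arrays overlapped, and the log2 difference at 100 μM was −0.10 (SE 0.16, limma adjusted p = 0.72), which became 0.09 without the first 100 μM array. PCDHGC4 had 596 and 761 untreated and 859 and 827 with 100 μM, a difference of 0.33 (SE 0.15, adjusted p = 0.17) that turned to −0.12 without scaling. PCDHGC5, the last gene of the cluster, had 124 and 142 against 150 and 207, with all treated arrays above both control arrays and a difference of 0.41 (SE 0.19, adjusted p = 0.17).

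Among genes that act on the choice of protocadherin promoters and on their chromatin, 23 of 24 listed genes were measured, with 38 probes. At 100 μM 13 probes of 10 genes were lower, where 10.4% of all probes were, and 1 was higher, where 8.94% were. The other 24 were not called, and the median log2 difference was −0.17, against −0.03 over all probes. For 5 of these 10 genes, SMCHD1, DNMT3A, TET1, TET2 and EHMT1, 1 probe was called and the others were not. Cohesin, the ring that extrudes the loops between enhancer and promoter, held several of them. For SMC3, a core subunit, the brighter probe had 17840 and 16680 untreated, 14200 and 13610 with 10 μM, 12390 and 12180 with 50 μM and 10930 and 11190 with 100 μM. It decreased with each dose without overlap, to a log2 difference of −0.64 (SE 0.09, limma adjusted p = 0.0084), and the dimmer SMC3 probe had the same difference, −0.64 (adjusted p = 0.012).

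STAG1 and STAG2, alternative cohesin subunits, had log2 differences of −0.72 and −0.56 for both STAG1 probes and of −0.60 for STAG2. NIPBL, which loads cohesin, had −0.44 and −0.56, and PDS5B, a cohesin regulator, had −0.56. The dimmer probe of SMCHD1, a chromatin protein that silences clustered protocadherins in mouse, had 761 and 799 untreated and 439 and 531 with 100 μM, a difference of −0.69. The limma adjusted p of these probes lay between 0.012 and 0.023. The brighter SMCHD1 probe had 3264 and 2617 against 2450 and 2653, which overlapped, with a difference of −0.20 (adjusted p = 0.37). CTCF itself, which binds the promoters and sets the ends of the loops, had 11900 and 11060 untreated, 10830 and 10370 with 10 μM, 9953 and 11250 with 50 μM and 10860 and 9869 with 100 μM, a difference of −0.15 that was not called (SE 0.11, limma adjusted p = 0.39). RAD21, the cohesin kleisin, had −0.40 (adjusted p = 0.21) and SMC1A, the partner of SMC3, 0.18 (adjusted p = 0.40).

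The probes for enzymes of DNA methylation did not move together, also within a gene. The dimmer probe of DNMT3A, a de novo methyltransferase, had 176 and 188 untreated and 105 and 88.1 with 100 μM (−0.92, SE 0.19, limma adjusted p = 0.022). The brighter DNMT3A probe had 8566 and 13120 against 10980 and 8231, which overlapped (−0.16, adjusted p = 0.67). DNMT3B, the other de novo enzyme, was higher, with 1133 and 1037 against 1478 and 1439 (0.43, adjusted p = 0.049). The dimmer probe of TET1, which oxidises methylcytosine, had 215 and 238 against 108 and 126 (−0.96, SE 0.20, adjusted p = 0.022) and lay below both control arrays at every dose. The brighter TET1 probe lay above both control arrays at every dose, with 1063 and 955 untreated and 2140 and 1315 with 100 μM, but was not called (0.73, SE 0.31, adjusted p = 0.15). No direction for the TET1 gene follows from these probes. Of 4 probes for TET2 the brightest had −0.57 (adjusted p = 0.041), and the others, which were not called, had 0.10, −0.08 and −0.49. Of 3 probes for EHMT1, a histone H3 methyltransferase, 1 had −0.43 (adjusted p = 0.043), and the others had 0.42 and −0.17 and were not called. Leaving out an array of the control or of 100 μM left 1 array in that group. Fewer of the 38 probes of the list were then lower, as over the whole array. Each call of this list, those of the cohesin genes included, was lost without at least 1 array. The log2 differences of the called probes kept their sign. They ran from −0.695 to −0.596 for the brighter SMC3 probe and from −0.83 to −0.579 for the dimmer STAG1 probe. With median scaling 18 were lower and 2 higher, where 15.1% and 16.1% of all probes were. Without scaling 28 were lower, where 35.8% of all probes were, and DNMT3B then had −0.10.

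Of genes that process protocadherins or bind them, 25 of 28 were measured with 37 probes, with a median log2 difference of −0.03 at 100 μM. Of these probes 1 was higher, 1 lower and 35 not called, where 8.94% of all probes were higher and 10.4% lower. The dimmer probe of WASF1, a subunit of the actin-regulating WAVE complex that protocadherins can recruit, had 467 and 446 untreated, 370 and 350 with 10 μM, 324 and 320 with 50 μM and 238 and 236 with 100 μM. It decreased with each dose without overlap, with a log2 difference of −0.95 (SE 0.09, limma adjusted p = 0.0029), and this call was kept under every setting tried. The brighter WASF1 probe was lowest at 10 μM, with 43500 and 40420 untreated, 27660 and 27630 with 10 μM and 34230 and 38700 with 100 μM, and was not called at 100 μM (−0.20, adjusted p = 0.26). The brighter probe of NLGN3, a neuroligin, went from 2373 and 2383 to 3624 and 3517 (0.59, SE 0.10, adjusted p = 0.012), but the call was lost without either control array and with median scaling, and without scaling its difference was −0.08. The dimmer NLGN3 probe had 1276 and 1188 against 1196 and 1322, which overlapped (0.03, adjusted p = 0.86). ADAM10, the protease that sheds protocadherin ectodomains, had −0.34 (adjusted p = 0.11) and PTK2, a focal adhesion kinase that protocadherins inhibit, 0.18 (adjusted p = 0.22).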

How the data were processed

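RNA of SH-SY5Y cells at 4 doses was measured on 8 arrays, 2 technical arrays per RNA sample. According to the methods, GenePix gave the spot signals, Rosetta Resolver processed them, spots with a negative flag were removed and a median scaling followed. The values the authors deposited are linear intensities, of which 0 to 188 per array are at or below 0, with the method of background subtraction not given in the sources used here. Since the deposited array medians differed (336 to 524), a floor of 1 was applied, values were converted to log2 and then quantile-normalized (limma 3.58.1 under R 4.3.3). Pandas 2.3.3 and matplotlib 3.10.9 in Python 3.11.15 served for names and plots.

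Doses were compared with the control by lmFit and eBayes over 8 arrays, two-sided, with Benjamini-Hochberg adjustment over 31741 probes and a threshold of 0.05, and the fit was tested on simulated data. Labels give the technical arrays as numbers 1 and 2. The number of arrays limits the precision, and p-values measure only the spread between technical arrays. Where a probe was under 50 on both arrays of 1 dose, a bound is given: the mean of the other dose over 50. The bound holds only if 50 is the background. No bound is given where 1 array of the other dose was also under 50.

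Names came from the annotation of the platform (24658 with 1 symbol, 1002 with several, 6081 with none) and were updated through a RefSeq table (GRCh38.p14), whose coordinates were used only for genes and promoters. The members, the gene lists, the background level and the normalization were chosen with earlier results of these data known. Named were members over 2-fold at any dose or beyond array noise at 100 μM, the C-type genes and PCDHB1, genes whose probes parted, and up to 4 genes of each list with the largest change. Other genes were named after their values had been seen. Of 6 mesenchymal marker genes 6 were above 50, of 4 epithelial 4, of 3 glial 2 and of 3 blood 1. Alternatives were median scaling, no scaling, cyclic loess, an offset of 50, a filter on dim probes, the array number as a block, each array left out, and the olfactory receptor level as background.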

Additional observations from a re-analysis of the deposited data

Results flagged for a closer look

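Of the 7 probes that carry several protocadherin symbols, 3 had both arrays at 100 μM above both control arrays. So had 16 of the 57 member probes, while 19 had both below both control arrays. The share over all probes was not counted, so these numbers do not show whether the probes stand out. The probes with several symbols stood outside the counts above, since they cannot be assigned to 1 gene. The probe with 9 gamma symbols, PCDHGA12 among them, had 3383 and 3869 untreated, 6961 and 5044 with 10 μM, 3965 and 5251 with 50 μM and 7155 and 5269 with 100 μM. All treated arrays lay above both control arrays, and its log2 difference at 100 μM was 0.763 (SE 0.23, limma adjusted p = 0.064). The probe with 5 gamma symbols had 205 and 217 against 300 and 246, a difference of 0.364 (adjusted p = 0.11). The probe with 3 gamma symbols, PCDHGA12 among them, had 141 and 152 against 179 and 156, a difference of 0.195 (adjusted p = 0.31). None of the 3 passed the threshold.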

How the results depend on the processing

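Members higher and lower at 100 μM numbered 4 and 11. The numbers higher were 7 with cyclic loess, 6 with the filter on dim probes and with the offset of 50, 12 with median scaling and 3 without scaling. The numbers lower were 11, 12, 12, 3 and 12 in the same order. Of all probes 10.9% were higher and 10.45% lower with cyclic loess, and 10.55% and 12.26% with the offset. Of the 28573 probes that the filter kept, 11.34% were higher and 13.24% lower. At 10 μM 0 were higher (3 with median scaling) and 2 lower (1 with cyclic loess, the filter and median scaling, 8 without scaling, 2 with the offset). At 50 μM 0 were called (median scaling 9 higher and 3 lower, filter 1 lower, offset 2 lower). Over 2-fold, 3 higher became 7 with median scaling, 4 without scaling and 2 with the offset, and 3 lower became 4 with cyclic loess, 1 with median scaling and the offset, and 2 without scaling and with the filter. The dose trend passed 0 members, and 1 without scaling. Increasing and decreasing members, 7 and 8, became 3 and 0 without scaling and 7 and 2 with median scaling. For these alternatives the shares over all probes are given for calls at 100 μM only. The other counts therefore do not show whether the members stand out from the array. The cluster medians at 100 μM, which were 0.07 for alpha, −0.15 for beta and −0.02 for gamma, became 0.15, −0.22 and 0.03 with cyclic loess, 0.23, −0.21 and 0.06 with the filter, 0.55, −0.16 and 0.71 with median scaling, 0.24, −0.48 and 0.39 without scaling, and 0.05, −0.12 and −0.01 with the offset. The median of all probes without scaling was −0.34, so that the alpha and gamma medians lay further above it and the beta median below. With the olfactory receptor level of 3612 as background, 1 member in place of 42 was above it in the control.

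Without single arrays, members higher at 100 μM numbered 1 to 4, members lower 2 to 9 and members lower at 10 μM 0 to 2, with 0 to 0 higher there and 0 to 0 at 50 μM. Over 2-fold, 1 to 3 were higher and 2 to 3 lower, 4 to 8 increased and 6 to 10 decreased in the order of the dose, and 0 to 0 passed the trend. The medians ran from 0.03 to 0.11 for alpha, −0.28 to −0.15 for beta and −0.11 to 0.05 for gamma. Same-numbered arrays of different doses correlated at −0.08 to 0.11 in their deviations, so that the numbers do not pair the samples. With the array number as a block, 3 members were higher and 5 lower at 100 μM, where 7.28% and 7.51% of all probes were. At 10 μM 0 members were higher and 1 lower with the block, and at 50 μM 0 were called. Of the 15 member calls, 8 were kept with the block, 14 with cyclic loess, the filter and the offset, 8 without scaling and 5 with median scaling.

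Directions turned for PCDHA7 (0.009 with median scaling), PCDHAC2 (0.40 with median scaling, 0.085 without scaling), PCDHGC4 (−0.12 without scaling), PCDHGC3 (0.092 without the first 100 μM array, with a range over left-out arrays from −0.28), PCDHB1 (−0.055 without the first control array, −0.045 without the first 100 μM array, with a range up to 0.082), DNMT3B (−0.10 without scaling) and the brighter NLGN3 probe (−0.079 without scaling). The cause was not tested. PCDHAC2 and PCDHGA7 were not tested with the filter, which removes them. Probes near 50 have only bounds, and there is no replicate of the cultures.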

Other observations

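The other 4 probes with several symbols had small differences at 100 μM. The probe with 15 alpha symbols had 1183 and 1324 untreated, 1424 and 1214 with 10 μM, 1323 and 1318 with 50 μM and 1114 and 1075 with 100 μM. Its 100 μM arrays lay below all other arrays, with a log2 difference of −0.19 (SE 0.12, limma adjusted p = 0.29). The probe with 10 alpha symbols had 355 and 364 untreated and 334 and 319 with 100 μM (−0.14, adjusted p = 0.37). The gamma probes with 8 and 7 symbols overlapped the control, with 0.16 (adjusted p = 0.55) and 0.01 (adjusted p = 0.97). PCDHGA12 is also among the 7 symbols of the last probe, which had 119 and 116 untreated and 126 and 112 with 100 μM.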
